A study of Homo sapiens with 8 samples.

Results

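The interleukin 1 family genes described here are IL33, IL1A, IL1B and IL18, which encode cytokines, and IL1RL1, IL1R1 and IL1RAP, which encode receptor chains. These 7 genes were taken by name from the 30386 genes of the deposited table, and all 7 are listed in it. They were chosen because IL33 had stood out in the comparison of the 2 sample groups, so their own differences between these groups are given as a description. No p-value is given for any of them, and nothing is read from how many passed the threshold used for all genes.

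All samples derive from WTC-TJP1, a human iPSC (induced pluripotent stem cell) line in established use, turned into endothelial cells. Messenger RNA was sequenced in 4 samples named iEC (endothelial cells) and 4 named iREC (retinal endothelial cells), lettered C, D, E and F in each group, all at passage 1. No treatment is given in the labels, and all samples share 1 line, so they say nothing about variation between donors. Nothing in the labels says whether the samples of a group came from separate differentiations, so the spread between them may be technical.

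Interleukin 33 is held in the nucleus, bound to chromatin, and acts as an alarm signal when a damaged cell lets it out. It binds the receptor chain ST2, encoded by IL1RL1, which pairs with the accessory chain encoded by IL1RAP. Interleukin 1 alpha and interleukin 1 beta bind the receptor encoded by IL1R1, which uses the same accessory chain, and all these receptors signal through the adaptor MYD88 to NF-kB. In blood vessels the endothelium is a main site of nuclear interleukin 33, and interleukin 1 makes endothelial cells display adhesion molecules and secrete chemokines.

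Total counts ran from 13739364 to 16971865 per sample. A count of 3, taken as the limit of detection, was worth 0.177 to 0.214 CPM (read counts scaled to library size with the TMM method). These limits cover counting error only. All 12 endothelial markers on a fixed list were detected at a mean of at least 1 CPM in both groups. Summed, they came to between 7537 and 9557 CPM in iEC, and in iREC to between 7881 and 10230 CPM in C, D and E and to 4558 CPM in F. Sample iREC F stood apart in other markers too. Its summed epithelial markers reached 4906 CPM, against 301 to 1114 CPM in the other iREC samples and 390 to 1173 CPM in iEC. Its summed fibroblast and mural markers reached 2809 CPM, against 522 to 985 CPM in the other iREC samples and 206 to 366 CPM in iEC. Within iEC, sample F was likewise the highest in both sums, at lower levels. It had 1173 CPM of epithelial markers against 390 to 672 CPM in the other iEC samples, and 366 CPM of fibroblast and mural markers against 206 to 275 CPM. Of 10 leukocyte markers, 1 was detected in iEC and 2 in iREC (PTPRC and FCER1G), with a summed level of 15.2 to 33.7 CPM in iEC and 4.37 to 8.95 CPM in iREC, and SPI1 was at 0 in all iREC samples. Of 10 markers of Muller glia and other retinal cells, 7 were in the table and only GLUL was detected in either group, and AQP4 was at 0 in all iREC samples. Those sums ran from 165 to 206 CPM in iEC and from 102 to 133 CPM in iREC.

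Between the groups, the ligands changed places. In iEC the family's ligand RNA was IL1A and IL1B, and in iREC it was IL33. IL33 (ENSG00000137033, GRCh38, chromosome 9, 6215786 to 6257983) had 0 counts in iEC C, D and E and 7 counts in iEC F. In iREC it had 6014, 9070, 10288 and 6232 counts in C, D, E and F, or 393, 645, 626 and 407 CPM. The groups were far apart and the iREC samples lay close together, with a highest value 1.64 times the lowest. The means were 0.125 ± 0.25 CPM for iEC and 518 ± 137 CPM for iREC (SD, n = 4). The fitted log2 fold change was 12.06 ± 0.70 (SE), a size that rests on the 7 reads of iEC F. Without that sample it was 15.98, so the fold itself is not determined by these libraries.

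IL1A (ENSG00000115008, chromosome 2, 112773915 to 112784590), whose product works both in the nucleus and as a released cytokine, went the other way. It had 113, 61.3, 64.5 and 61.0 CPM in iEC samples C to F, and 3.92, 0.0712, 1.22 and 0.196 CPM in the iREC samples of the same letters. The lowest iEC sample was well above the highest iREC sample. In iREC D and F only 1 and 3 reads were counted, and iREC C, with 60 reads, carried most of what remained. The fitted log2 fold change was -5.77 ± 0.81 (SE), which is 54.7-fold lower in iREC, and without iREC C it was -7.17.

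IL1B (ENSG00000125538, chromosome 2, 112829751 to 112836903) lies on the same strand of the same cluster and encodes the secreted form that needs cleavage by caspase 1. It had 31.1, 26.2, 56.2 and 63.5 CPM in the iEC samples and 5.22, 0.213, 1.58 and 0.783 CPM in the iREC samples, in the order C, D, E, F. The groups did not overlap. Within iREC the order of the samples was the same as for IL1A, with C highest, then E, then F, and D lowest. For IL1A, however, F stood above D on 3 reads against 1, at or below the limit of detection, so only C and E are ordered reliably. Within iEC the order differed, since C was highest in IL1A and F in IL1B. The fitted log2 fold change of IL1B was -4.49 ± 0.75 (SE), 22.5-fold lower in iREC, and -5.64 without iREC C.

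The bases just before the start sites of these 3 ligand genes are shown, because the genes mark the exchange between the groups and IL1A and IL1B were low together. Each line gives 250 bases upstream of a RefSeq start site on GRCh38.p14, 5′ to 3′ on the gene's strand, taken as the RefSeq window nearest to the gene start in the deposited table. They lie at chr9:6215557-6215806 on the plus strand for IL33, at chr2:112784494-112784743 on the minus strand for IL1A and at chr2:112836780-112837029 on the minus strand for IL1B. Capitals mark matches to 6 short motifs searched on both strands.
IL33: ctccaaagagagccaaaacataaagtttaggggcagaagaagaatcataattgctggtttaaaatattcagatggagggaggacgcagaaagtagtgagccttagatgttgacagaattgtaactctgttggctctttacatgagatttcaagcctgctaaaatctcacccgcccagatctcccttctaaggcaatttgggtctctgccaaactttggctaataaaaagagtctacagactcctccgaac
IL1A: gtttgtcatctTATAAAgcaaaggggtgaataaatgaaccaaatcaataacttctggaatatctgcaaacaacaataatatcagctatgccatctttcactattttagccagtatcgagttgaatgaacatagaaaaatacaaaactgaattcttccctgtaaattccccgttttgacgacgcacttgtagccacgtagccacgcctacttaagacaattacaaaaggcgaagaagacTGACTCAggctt
IL1B: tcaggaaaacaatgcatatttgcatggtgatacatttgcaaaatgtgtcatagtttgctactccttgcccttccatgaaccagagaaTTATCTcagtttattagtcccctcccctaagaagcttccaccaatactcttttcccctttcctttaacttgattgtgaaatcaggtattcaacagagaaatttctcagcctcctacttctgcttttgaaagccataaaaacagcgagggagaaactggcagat
The motif shares that follow are of all 35116 RefSeq windows of this length. The TATA box (TATAAA) occurred in 10.7% of them and the AP-1 site (TGANTCA), bound by Fos and Jun proteins, in 6.57%. The ETS site (AGGAAG), bound by endothelial ETS factors, occurred in 28.7% and the GATA site (AGATAA) in 9.17%. The RBPJ site of the Notch pathway (TGGGAA) occurred in 20.8%, and the common form of the NF-kB site in 1.73%. IL1A held TGACTCA, an AP-1 match, 12 bases before its start site, and TATAAA 239 bases before it. IL1B held 1 match, TTATCT, the GATA motif on the other strand, and the IL33 window held 0 matches to these letters. These are matches of letters only. IL33 and IL1A each have 2 RefSeq windows, of which 1 is shown, and which start site these cells use was not tested.

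IL18 (ENSG00000150782, chromosome 11, 112143251 to 112164117) encodes a further ligand that caspase 1 cleaves. It had 3, 1, 1 and 7 counts in iEC samples C to F, or 0.0591 to 0.50 CPM. In iREC it had 8, 133, 52 and 448 counts, or 0.522, 9.47, 3.16 and 29.2 CPM. The lowest iREC sample, C, was 1 read above the highest iEC sample, F, while iREC F was 56.0 times iREC C. IL18 did not pass the filter on low counts. In the fit without that filter its log2 fold change was 5.68 ± 1.07 (SE), or 6.56 when iEC F was left out. Of the 6 epithelial markers in the table, 4 had the same order over the iREC samples as IL18 (CDH1, KRT8, KRT19 and KRT7). KRT18 and EPCAM did not, being slightly higher in C than in E (194 and 183 CPM for KRT18, 0.718 and 0.487 CPM for EPCAM). Of the 10 fibroblast and mural markers, 5 also had that order (COL1A1, PDGFRB, LUM, DCN and CSPG4), and LUM had 1.96, 13.8, 61.7 and 427 CPM in iREC C, E, D and F. All 6 epithelial and all 10 fibroblast and mural markers were highest in iREC F, as IL18 was. CDH1 and KRT8, chosen for the plot after their values were seen, stand for the 4 epithelial genes. CDH1 had 0, 1.16, 5.12 and 81.3 CPM and KRT8 98.4, 194, 600 and 3013 CPM in iREC C, E, D and F, while CDH1 had at most 1 count in an iEC sample. The part of epithelial, fibroblast or mural cells in the IL18 values was not tested. In bulk samples, fewer cells of a type and less RNA per cell cannot be told apart.

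**Figure D1:**
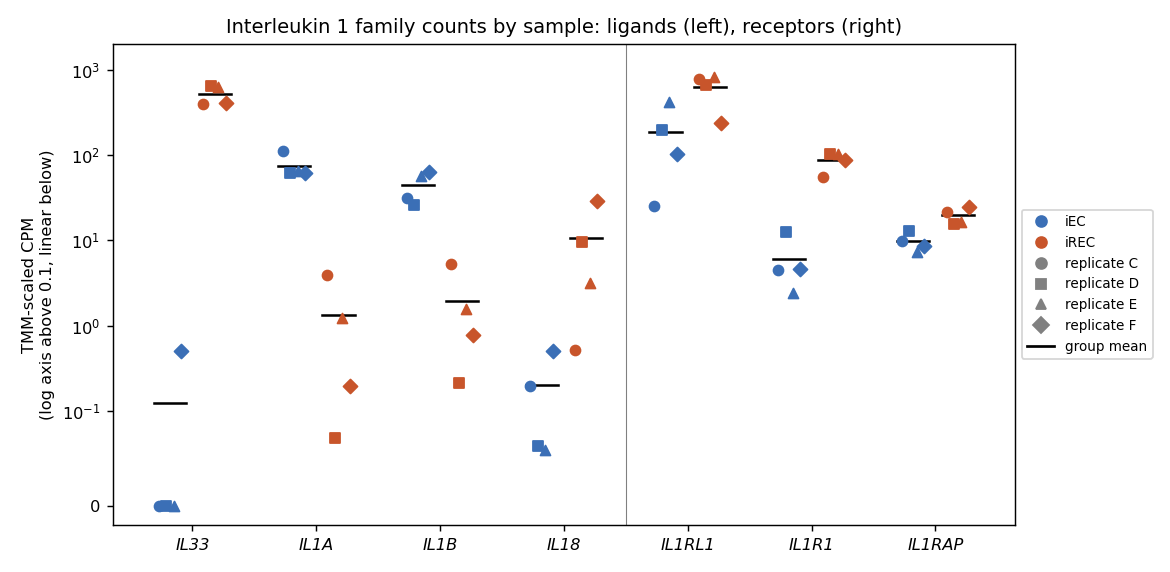
TMM-scaled CPM of each family gene in every sample (points, shaped by replicate letter) with the group mean (line), on an axis that is logarithmic above 0.1 and linear below. IL33 is at 0 in 3 iEC samples and between 393 and 645 CPM in iREC, IL1A and IL1B are lower in all iREC samples than in any iEC sample, and only IL1RL1 overlaps between the groups.

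Of the receptor genes, IL1R1 (ENSG00000115594, chromosome 2, 102064544 to 102179874) differed most. It had 4.48, 12.4, 2.42 and 4.65 CPM in iEC samples C to F, and 55.0, 103, 103 and 88.0 CPM in iREC. The groups did not overlap, and iEC D was the highest of its group. The log2 fold change was 3.86 ± 0.48 (SE), 14.5-fold higher in iREC, and 4.50 without iEC D. The receptor of interleukin 1 alpha and beta was thus high in the samples in which both ligand RNAs were low. An antisense gene, IL1R1-AS1, overlaps IL1R1 by 11 exon bases and had at most 6 counts in a sample.

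IL1RL1 (ENSG00000115602, chromosome 2, 102311502 to 102352037), which encodes both the membrane-bound and the soluble form of ST2, was abundant in both groups and varied widely. It had 25.4, 195, 413 and 103 CPM in iEC samples C to F, a 16.3-fold span, and 786, 668, 816 and 237 CPM in iREC. The groups overlapped, since iREC F was below iEC E. The log2 fold change was 1.77 ± 0.71 (SE), and without iEC E it was 2.54. The gene counts do not separate the soluble from the membrane form. The low value of iREC F went with low endothelial markers in that sample. All 12 on the list except VWF were lowest there. VWF was lowest in iREC C, at 156 CPM against 483 CPM in iREC F. As examples, PECAM1 had 491 CPM in iREC F against 814 to 852 CPM in the other iREC samples, and EMCN, an endothelial sialomucin, 209 against 470 to 572 CPM. A link between IL1RL1 and these markers was not tested. Mast cells also express ST2. Of 6 mast cell markers, 3 were in the table. Of these, CPA3 had at most 0.24 CPM in iREC and at most 0.50 CPM in iEC, the latter in iEC F. KIT had 6.02 to 10.3 CPM in iREC and 1.77 to 10.3 CPM in iEC, and MS4A2 had 0.26 to 8.58 CPM in iREC and at most 0.12 CPM in iEC. The summed mast cell markers came to 1.89 to 10.3 CPM in iEC and 9.79 to 14.9 CPM in iREC, and their part in the IL1RL1 values was not tested.

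IL1RAP (ENSG00000196083, chromosome 3, 190514051 to 190659750), the shared accessory chain, was low and even. It had 9.86, 13, 7.38 and 8.65 CPM in iEC and 21.6, 15.7, 16.6 and 24.5 CPM in iREC, in the order C, D, E, F. The groups did not overlap, and the log2 fold change was 1.01 ± 0.23 (SE), a 2.02-fold difference.

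In all, 5 of the 7 genes were higher and 2 lower in iREC. Of the 6 that passed the filter, 5 were past an adjusted p of 0.05 in the fit across all genes, 3 higher and 2 lower, where 25.0% of the 15330 tested genes were called, 13.2% higher and 11.7% lower. The groups did not overlap in 6 of the 7, with 4 higher and 2 lower, and in 29.1% of all tested genes, 14.4% higher and 14.7% lower. Since the genes were picked from this comparison, nothing is read from these counts.

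Levels of different genes are compared on the deposited FPKM scale, which divides by gene length. In iEC the order was IL1A (35.0 ± 11.4 FPKM, SD, n = 4), IL1RL1 (31.8 ± 28.7), IL1B (14.3 ± 6.19), IL1R1 (0.839 ± 0.608), IL1RAP (0.835 ± 0.199), IL18 (0.0785 ± 0.0815) and IL33 (0.0395 ± 0.079). The ranges of the first 3 overlapped one another in turn, those of IL1R1 and IL1RAP overlapped, and so did those of IL18 and IL33. In iREC the order was IL33 (157 ± 40.5 FPKM, SD, n = 4), IL1RL1 (107 ± 45.4), IL1R1 (12.1 ± 3.10), IL18 (4.0 ± 4.93), IL1RAP (1.67 ± 0.37), IL1A (0.626 ± 0.828) and IL1B (0.621 ± 0.716). There only IL1RL1 and IL1R1, among neighbours in the order, had ranges that did not overlap, although IL33 was above IL1RL1 in 3 of the 4 samples, with iREC C the exception.

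As a share of the summed FPKM of the 4 ligands, IL33 took 0% in iEC C, D and E and 0.31% in iEC F, and 97.0%, 98.2%, 98.8% and 91.6% in iREC samples C to F. IL1A took 84.0%, 77.3%, 62.5% and 58.0% in the iEC samples and at most 1.48% in iREC. IL18 took 8.15% in iREC F and at most 1.78% in the other samples. The summed ligand level was 36.6 to 62.0 FPKM in iEC and 123 to 198 FPKM in iREC. Among the 3 receptor chains, IL1RL1 took 74.8% to 98.7% in iEC and 74.0% to 93.4% in iREC. Its FPKM exceeded that of its accessory chain IL1RAP in every sample, by 5.17 to 113 times in iEC and 19.5 to 99.2 times in iREC. IL1R1 was 0.535 to 1.56 times IL1RAP in iEC and 4.15 to 10.7 times in iREC, with no overlap between the groups. The annotated exons cover 11558 bases for IL1RAP, 7083 for IL1R1 and 5746 for IL1RL1. The ratios between these genes depend on the gene length used, and the length of the transcripts made in these samples was not tested.

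**Figure D2:**
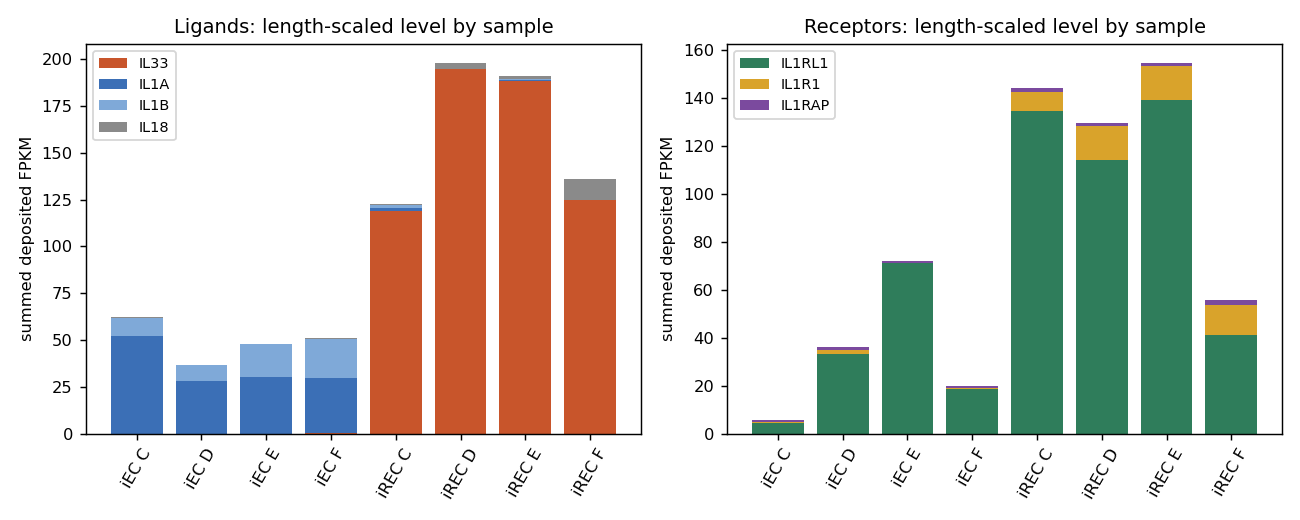
Deposited FPKM, which is scaled by gene length, stacked over the 4 ligand genes (left) and the 3 receptor genes (right) in each of the 8 samples. IL1A and IL1B make up the iEC ligand bars and IL33 the iREC bars, and IL1RL1 is the largest part of every receptor bar.

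The nearest protein-coding genes listed beside IL33 did not pass the test. RANBP6, 200 kb to the left, had 53.5 ± 5.14 CPM in iEC and 49.99 ± 3.17 CPM in iREC (edgeR adjusted p 0.58, log2 fold change -0.096 with an SE of 0.11; SD over n = 4), and UHRF2, 155 kb to the right, 77.7 ± 10.1 and 71.1 ± 8.16 CPM (edgeR adjusted p 0.537, log2 fold change -0.13 with an SE of 0.14). CKAP2L, 9.24 kb from the cluster of IL1A and IL1B, had 43.0 ± 32.1 and 35.7 ± 10.9 CPM (edgeR adjusted p 0.774, log2 fold change -0.27 with an SE of 0.58). That cluster was taken to run on past IL1B to IL1RN, with family genes passed over. PSD4, 23.3 kb beyond IL1RN, had a mean under 1 CPM in both groups. SDHD, 23.2 kb from IL18, had 40.5 ± 5.94 and 38.2 ± 4.81 CPM (edgeR adjusted p 0.722), and TEX12 on the other side was at or below 0.0357 CPM on average. Left of the receptor cluster, MAP4K4, a kinase gene 97.2 kb away, fell from 1496 ± 140 to 867 ± 110 CPM (edgeR adjusted p 0.00341, log2 fold change -0.79 with an SE of 0.14), and SLC9A4 on its right side had at most 0.116 CPM on average.

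The genes whose log2 CPM followed IL33 most closely over the 8 samples were PLTP (Pearson r = 0.998), which encodes the phospholipid transfer protein, IGFBP7 (r = 0.997), a secreted protein of the vessel wall, SLA (r = 0.995), a Src-like adaptor, CCDC184 (r = 0.994) and the integrin subunit ITGAV (r = 0.994). Among 9569 protein-coding genes compared, 271 had an r above 0.95. The samples fall into 2 groups, so such an r mostly restates the difference between them and carries no test. Mean PLTP was 7.08 ± 2.65 CPM for iEC against 121 ± 17.1 for iREC, and mean ITGAV 117 ± 14.6 against 399 ± 27.7 CPM (SD, n = 4).

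The rest of the pathway was described with 5 lists of 104 genes in all, none of them among the 7. Of these, 97 were listed and 83 passed the filter, and 27 were called by edgeR, 15 higher and 12 lower in iREC, which is 32.5% against 25.0% of all tested genes. The median log2 fold change over the 83 was -0.035, beside 0.020 over all tested genes.

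Of the other ligands and receptors of the family, 10 of 15 were listed, 4 passed the filter and 1 was called. IL18R1, the binding chain of the interleukin 18 receptor, rose from 0.714, 15.4, 3.49 and 1.86 CPM in iEC samples C to F to 147, 219, 265 and 124 CPM in iREC (edgeR adjusted p 0.00203, log2 fold change 5.13 with an SE of 0.82). iEC D was the highest of its group, and without it the log2 fold change was 6.52. The gene model of IL18R1 starts within that of IL1RL1 on the same strand, but the 2 share only 95 exon bases, 1.65% of those of IL1RL1 and 2.18% of those of IL18R1. IL18RAP, its accessory chain, had at most 1 count in any iEC sample and 2, 19, 28 and 1 counts in iREC samples C to F. It was thus above the limit of detection only in iREC D and E, and it did not pass the filter. The decoy receptor IL1R2 had 3 counts or fewer per iEC sample and 3 to 11 per iREC sample. The receptor antagonist IL1RN was under the limit of detection in every sample, with 0 counts in iEC and at most 2 in iREC. IL18BP, which neutralises interleukin 18, had 6.22 ± 2.38 and 8.16 ± 2.53 CPM (edgeR adjusted p 0.457), and the inhibitory receptor SIGIRR 22.3 ± 9.87 and 14.9 ± 3.39 CPM (edgeR adjusted p 0.206; SD, n = 4).

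Of 18 tested genes of processing and release, 10 were called, 4 higher and 6 lower (55.6%, with a median log2 fold change of -0.42). Of all tested genes, 25.0% were called. The list was chosen with earlier results of these data known, so nothing is read from its share. NLRP3, the sensor of the inflammasome that activates caspase 1, fell from 5.59 ± 2.52 to 0.627 ± 0.275 CPM (edgeR adjusted p 0.00188, log2 fold change -3.14 with an SE of 0.50; SD over n = 4). CAPN2, a subunit of the calpains that cleave the interleukin 1 alpha precursor, fell from 1156 ± 166 to 465 ± 48.0 CPM (edgeR adjusted p 0.000315, log2 fold change -1.31 with an SE of 0.15). NINJ1, which ruptures the membrane of dying cells, fell from 49.6 ± 24.9 to 19.9 ± 4.97 CPM (edgeR adjusted p 0.0184), a call lost without iREC D (0.0578). S100A13, a partner in the export of interleukin 1 alpha, fell from 31.4 ± 15.7 to 13.1 ± 3.46 CPM (edgeR adjusted p 0.0289), a call lost without iEC E or F or without iREC C, D or E, at up to 0.0777, and with limma-voom (0.0519). In the other direction, CTSG, a protease known to cut interleukin 33 into more active forms, had 4 counts in iEC D and 0 in the other iEC samples. It rose to 18.02, 9.39, 10.4 and 1.96 CPM in iREC samples C to F (edgeR adjusted p 0.00119, log2 fold change 7.11 with an SE of 1.03). That size rests on the 4 reads of iEC D. Without that sample it was 10.25, so the fold itself is not determined by these libraries. CTSG is a gene of granulocytes and mast cells. The pan-leukocyte gene PTPRC had 0 counts in all iEC samples and 0.79 to 2.74 CPM in iREC. FCER1G, a receptor chain of granulocytes and mast cells and the only other leukocyte marker detected, went the other way, at 26.04 ± 8.63 CPM for iEC and 4.26 ± 2.005 CPM for iREC (edgeR adjusted p 0.00139; SD over n = 4). The other 8 leukocyte markers were each below 1 CPM on average in both groups, with SPI1 at 0 in iREC. The part of such cells in the CTSG values was not tested. NLRP1 rose from 49.1 ± 4.16 to 89.0 ± 25.1 CPM (edgeR adjusted p 0.00889). CASP1, the caspase that matures interleukin 1 beta and interleukin 18, rose from 0.368 ± 0.359 to 2.40 ± 1.70 CPM (edgeR adjusted p 0.0365). That call was lost without iEC C or E or without iREC D, E or F, at up to 0.0985, and its log2 fold change of 2.71 was 3.49 without iEC F and 2.10 without iREC F. GSDMD, whose product forms the release pore, rose from 73.3 ± 18.2 to 122 ± 22.4 CPM (edgeR adjusted p 0.0277), lost without iEC C or E or without iREC C, D or E and with the replicate letter as a block, at up to 0.0865.

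Of 27 receptor adaptors and signalling genes, 6 were called, 4 higher and 2 lower (22.2%, beside 25.0% of all tested genes). The median log2 fold change was -0.036. The core adaptor MYD88 had 59.0, 56.2, 60.8 and 71.8 CPM in iEC samples C to F and fell to 34.0, 41.5, 33.3 and 46.9 CPM in iREC (edgeR adjusted p 0.0101, log2 fold change -0.67 with an SE of 0.15). The kinase IRAK2 fell from 32.6 ± 8.12 to 9.19 ± 1.91 CPM (edgeR adjusted p 0.000493, log2 fold change -1.82 with an SE of 0.22; SD over n = 4). IRAK4, the first kinase recruited, had 24.2 ± 1.98 and 24.6 ± 3.74 CPM (edgeR adjusted p 0.913, log2 fold change 0.027 with an SE of 0.15), and its sign changed without iEC E (-0.013), iREC D (-0.013) or iREC E (-0.042). The ubiquitin ligase TRAF6 had 25.1 ± 3.06 and 21.8 ± 2.70 CPM (edgeR adjusted p 0.347, log2 fold change -0.21 with an SE of 0.15). TAB2 rose from 80.9 ± 4.71 to 111 ± 10.4 CPM (edgeR adjusted p 0.0137), a call lost without iEC C or without the filter, at up to 0.0563. PELI2 rose from 2.13 ± 1.65 to 8.18 ± 3.11 CPM (edgeR adjusted p 0.037), lost without iEC C, E or F or iREC C, D or E, at up to 0.0853. MAP3K8 rose from 1.68 ± 0.47 to 5.49 ± 3.52 CPM (edgeR adjusted p 0.0238), lost without iEC C or E, at up to 0.0668. TAB3 (edgeR adjusted p 0.0491; log2 fold change 0.46 ± 0.15, SE) kept its call in 6 of 16 alternatives. It lost it when any 1 sample other than iEC E was left out, at up to 0.0972, and without the filter (0.109), with the replicate letter as a block (0.106) and with library size only (0.0638).

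Of 15 negative regulators, 3 were called, 2 higher and 1 lower (20%, beside 25.0% of all tested genes). The median log2 fold change was 0.0031. IRAK3, a kinase-like brake on receptor signalling, rose from 11.5 ± 5.38 to 37.9 ± 12.4 CPM (edgeR adjusted p 0.0086, log2 fold change 1.72 with an SE of 0.37; SD over n = 4). TNFAIP3, the deubiquitinase A20, rose from 13.5 ± 3.91 to 32.8 ± 10.4 CPM (edgeR adjusted p 0.00729, log2 fold change 1.28 with an SE of 0.26). NFKBIE, an inhibitor of NF-kB, fell from 34.5 ± 4.26 to 17.4 ± 2.09 CPM (edgeR adjusted p 0.00138, log2 fold change -0.99 with an SE of 0.15). The groups did not overlap in these 3 and in NFKBIB, which was not called (edgeR adjusted p 0.0731). That is 4 of the 15 genes, beside 29.1% of all tested genes, so nothing is read from it.

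**Figure D3:**
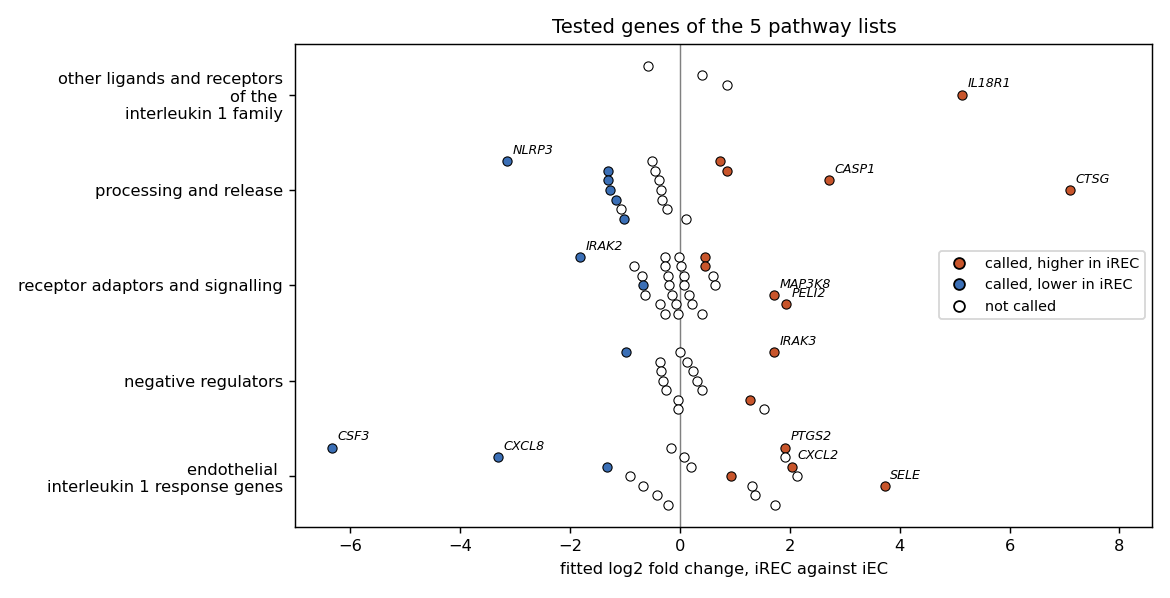
Fitted log2 fold change of iREC against iEC for each of the 83 tested genes, by list, filled where edgeR called the gene. Called genes lie on both sides of 0 in every list except the other ligands and receptors, where IL18R1 is the only call.

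Genes that interleukin 1 is known to induce in endothelium moved both ways. Of 19 tested, 7 were called, 4 higher and 3 lower (36.8%, beside 25.0% of all tested genes). The median log2 fold change was 0.20, and nothing is read from the share. The chemokine CXCL8 fell from 301, 255, 788 and 681 CPM in iEC samples C to F to 7.64, 91.0, 55.9 and 48.8 CPM in iREC (edgeR adjusted p 0.00705, log2 fold change -3.32 with an SE of 0.68). It was lowest in iREC C, the iREC sample with the most IL1A and IL1B. CXCL1, a related chemokine, fell from 118 ± 36.4 to 46.8 ± 12.2 CPM (edgeR adjusted p 0.00705). CSF3, a growth factor gene, fell from 4.61 ± 2.55 CPM to at most 2 counts in any iREC sample (SD, n = 4; edgeR adjusted p 0.000655), at least 23.4-fold lower on average. By contrast the adhesion molecule SELE had 0.0649, 0.694, 0.118 and 1.64 CPM in iEC and rose to 3.85, 10.8, 13.5 and 4.89 CPM in iREC (edgeR adjusted p 0.0103, log2 fold change 3.72 with an SE of 0.83), and without iEC F the log2 fold change was 4.78. The chemokine CXCL2 rose from 14.3 ± 8.59 to 58.6 ± 15.2 CPM (edgeR adjusted p 0.00787). PTGS2, the inducible cyclooxygenase, rose from 3.85 ± 1.395 to 14.6 ± 8.46 CPM (edgeR adjusted p 0.00948). The pentraxin PTX3 rose from 111 ± 37.9 to 210 ± 61.9 CPM (edgeR adjusted p 0.0298), a call lost without iEC C, D or E or without iREC C, at up to 0.0915. PTGS2 and PTX3 were both highest in iREC C, at 27.0 and 302 CPM. SELE was lowest in iREC C, as CXCL8 was, while CXCL1 and CXCL2 were highest in iREC D, at 58.2 and 70.7 CPM. A link between these genes and the IL1A and IL1B levels was not tested. ICAM1 was 113 ± 50.6 and 59.5 ± 25.6 CPM (edgeR adjusted p 0.102), called without iREC F and with the replicate letter as a block, at a lowest adjusted p of 0.0174. VCAM1 was 2.55 ± 3.94 and 8.42 ± 5.31 CPM (edgeR adjusted p 0.234), called without iEC F, which had 8.43 CPM where the other iEC samples had 0.89 or less (edgeR adjusted p 0.00933, log2 fold change 3.80). IL6 was 1.90 ± 2.04 and 4.66 ± 3.34 CPM (edgeR adjusted p 0.281).

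**Figure D4:**
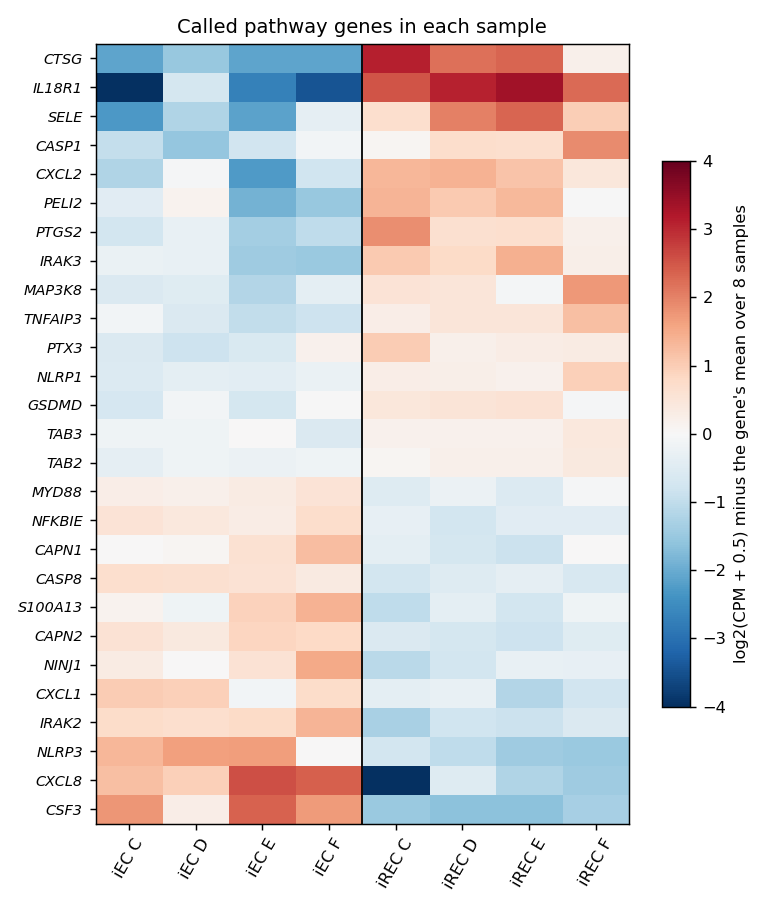
The 27 called pathway genes in each of the 8 samples, as log2(CPM + 0.5) minus the gene's mean over all samples, with colours ending at 4 units either way. Genes above TAB2 and including it are higher in iREC and those from MYD88 down are lower, and CXCL8 in iREC C and IL18R1 in iEC C are the darkest blue.

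**Figure D5:**
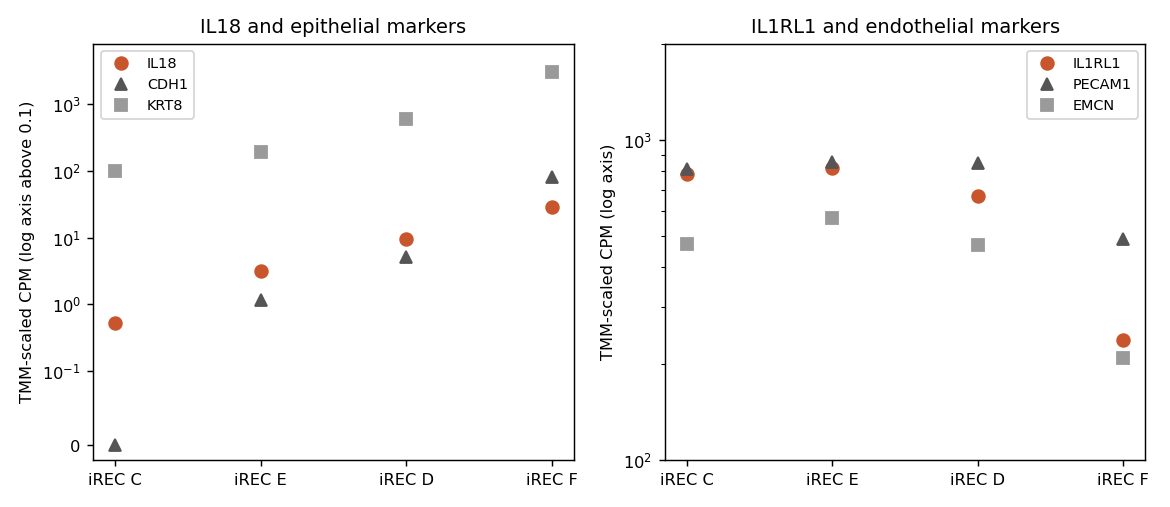
TMM-scaled CPM in the 4 iREC samples, of IL18 with the epithelial genes CDH1 and KRT8 (left, axis logarithmic above 0.1) and of IL1RL1 with the endothelial genes PECAM1 and EMCN (right, logarithmic axis). IL18 goes up from 0.522 CPM (sample C) to 29.2 CPM (sample F) beside CDH1 at 0 and 81.3 CPM, and IL1RL1, PECAM1 and EMCN are all lowest in iREC F. The endothelial marker VWF, not plotted, was lowest in iREC C.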

How the data were processed

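Messenger RNA of 8 samples was measured by RNA sequencing. The RNA was enriched on poly-T beads and dUTP marked one cDNA strand, per the labels' protocols. The submitters' processing notes name fastp, HISAT2 2.0.5 and hg38; the counting program and its strand setting are not given in the sources used here. Per the file headers the authors deposited whole-number read counts per gene, with no normalization, and FPKM values scaled by gene length; FPKM was used only to compare levels between genes. All 30386 gene starts and ends matched GENCODE release 29.

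Computed here: genes passing filterByExpr (15330) were fitted on TMM-scaled counts with edgeR 4.0.16 (glmQLFit and glmQLFTest, group as the only term, all 8 samples). P-values were adjusted by Benjamini-Hochberg over all tested genes and called under 0.05. Standard errors came from the coefficient and the F statistic. The fit was tested on simulated data. A symbol with 2 gene identifiers was taken as the one with more counts. Likeness to IL33 was Pearson's r of log2 CPM (prior count 2) over protein-coding genes averaging 10 CPM or more in iREC. In 16 alternatives, each sample was left out in turn, the filter was dropped or made stricter, TMM was replaced (by plain library sizes, upper quartiles or the size factors of DESeq2), the replicate letter was a block, or the test was that of DESeq2 1.42.0 or limma-voom (limma 3.58.1). Named genes were the 7 family genes, up to 4 called genes a direction per list, 16 chosen by name, the 5 most like IL33, and neighbours. The other named genes come from marker lists. The family genes and all lists were chosen with earlier results of these data known. RefSeq promoter windows were found for 6 of the 7 genes.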

Additional observations from a re-analysis of the deposited data

Results flagged for a closer look

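In 79 groups of 4 values (log2 CPM of the family and named pathway genes), a sample was marked where Dixon's gap ratio passed its 95% critical value. This marked 9, where about 4 would be marked by chance if all values were normally distributed. Among the family genes these were IL33 in iEC F at -0.67 (7 reads against 0 in the others), IL1RL1 in iREC F at 7.89 (237 CPM against 668 to 816) and IL1A in iEC C at 6.82 (113 CPM against 61.0 to 64.5). Among the others they were CTSG in iEC D at -1.39 (4 reads against 0), NLRP1 in iREC F at 6.98, TAB3 in iREC F at 5.45, IRAK2 in iEC F at 5.49, PTX3 in iREC C at 8.24 and ICAM1 in iEC F at 7.56. Of the 9, 6 lie in a sample lettered F, IL33 in iEC F among them. The marks of IL33 and CTSG were fixed in advance. With 0 reads in the other iEC samples, any read in the remaining sample gives the largest possible ratio. The 9 marks thus cannot be set against the 4 given for chance, and nothing is read from the difference.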

How the results depend on the processing

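Of the 16 alternatives to the edgeR fit, all kept the count of called genes within 1.5 times of 3829 (2660 without iREC D to 4664 with DESeq2) and that of called pathway genes within 1.5 times of 27 (20 without iREC D to 36 with DESeq2). The family genes kept their direction in every alternative that fitted them. The log2 fold change of IL33 moved by more than the spread between replicates with limma-voom, to 12.96, and ran from 11.62 to 15.98 when 1 sample was left out. The cause was not tested, beyond the 7 reads of iEC F. IL33 was not alone in shifting with limma-voom, where IL1A went from -5.77 to -6.90 and IL1B from -4.49 to -5.13. Of 25 called genes named from the pathway lists, 16 kept their call in every alternative that tested them and 9 lost it in at least 1. IRAK4 changed sign without iEC E (-0.013), iREC D (-0.013) and iREC E (-0.042), and reached 0.119 without iREC F. With a prior count of 0.5, 3 of the 5 genes most like IL33 remained, and 4 with library size only. With the replicate letter as a block, 3334 genes and 29 pathway genes were called. Deviations of same-letter samples correlated at 0.168, -0.079, 0.029 and 0.25 for C, D, E and F across genes. Of the 8 samples, 3 correlated best with their own letter. With so few samples, these values cannot settle whether the letters are pairs. The letters were not taken as pairs in the fit because the labels do not say what a letter shares. IL18 was fitted by 6 alternatives because it fell below the filter in the rest. At 7 reads or fewer, the levels of IL33 and IL18 in iEC are limited by depth.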
